A study of Mus musculus with 4 samples.

Results

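Genes that vessels use to catch and hold leukocytes were followed through the stroma of the mouse submandibular gland, 7 in all: Selp, Sele, Vcam1, Icam1, Icam2, Vwf and Ackr1. They were taken by symbol, by a rule that uses no measured value, and all 7 were found among the 31053 genes of the count matrices. The list itself was drawn up with earlier results of these data known. Droplet-based (10x Genomics) transcriptomes of single cells came from 2 deligated and 2 homeostatic libraries from female C57BL6/J mice. In the deligated group, aged 14 weeks, a metal clip had closed the main ducts for 14 days and had then been taken off for 5 days. The homeostatic group, aged 12 weeks, had no surgery. All 4 cell suspensions had been depleted of EpCAM-bearing epithelial cells and Ter119-bearing red cells and then of dead cells. The protocol names sublingual glands beside the submandibular ones and 2 glands per preparation, and gives no number of animals per library. Age and the software version in the file headers (Cell Ranger 6.0.1 for the deligated and 7.0.0 for the homeostatic libraries) differ with the group and cannot be told apart from it. By default the later version counts intronic reads and the earlier one does not, and whether the defaults were kept is not given in the sources used here.

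Leukocytes leave the blood in steps, mostly in venules behind the capillaries. P-selectin (Selp) and E-selectin (Sele) catch rolling leukocytes through sugar-bearing ligands, and ICAM-1, ICAM-2 and VCAM-1 then bind leukocyte integrins for arrest and crawling. Von Willebrand factor (Vwf) builds the Weibel-Palade bodies, the storage granules from which endothelial cells release P-selectin at once when stimulated. ACKR1 is an atypical chemokine receptor that carries chemokines across the venular wall without signalling through G proteins. In GRCm38 the gene bodies lie as follows: Selp (ENSMUSG00000026580) at chr1:164115264-164150026 on the plus strand, Sele (ENSMUSG00000026582) at chr1:164048234-164057677 on the plus strand, Vcam1 (ENSMUSG00000027962) at chr3:116109949-116129688 on the minus strand, Icam1 (ENSMUSG00000037405) at chr9:21015985-21028817 on the plus strand. The others are Icam2 (ENSMUSG00000001029) at chr11:106377656-106388075 on the minus strand, Vwf (ENSMUSG00000001930) at chr6:125546774-125686679 on the plus strand and Ackr1 (ENSMUSG00000037872) at chr1:173331886-173333750 on the minus strand. Selp, Sele, Vcam1 and Icam1 are textbook targets of NF-kappaB after cytokine stimulation, while Icam2 is carried by resting endothelium.

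The promoters of the inducible selectin Sele, the stored selectin Selp and Icam1 are shown to set a pair of selectins beside Icam1. Over the cell types below the selectins ran together (Pearson r = 0.97). Icam1 followed them less closely (0.48 with Selp and 0.47 with Sele), though within vessels it was highest in the same type. Each run is the 250 bases before the start of the gene in RefSeq (GRCm38.p6), 5′ to 3′ on the gene's own strand. They lie at chr1:164047984-164048233 (plus strand) for Sele, chr1:164115014-164115263 (plus strand) for Selp and chr9:21015690-21015939 (plus strand) for Icam1. Capitals mark matches to the NF-kappaB core GGANNTTCC and to the TATA box TATAAA, each sought on either strand.
Sele: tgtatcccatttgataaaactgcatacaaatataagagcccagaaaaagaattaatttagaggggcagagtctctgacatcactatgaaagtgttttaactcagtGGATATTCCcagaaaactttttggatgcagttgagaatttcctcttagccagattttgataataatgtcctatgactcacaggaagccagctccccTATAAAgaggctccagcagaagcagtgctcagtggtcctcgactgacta
Selp: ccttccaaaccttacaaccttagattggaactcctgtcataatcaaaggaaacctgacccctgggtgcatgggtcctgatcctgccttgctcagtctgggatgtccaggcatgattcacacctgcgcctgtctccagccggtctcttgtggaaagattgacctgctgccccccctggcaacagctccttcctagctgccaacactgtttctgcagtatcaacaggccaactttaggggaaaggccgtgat
Icam1: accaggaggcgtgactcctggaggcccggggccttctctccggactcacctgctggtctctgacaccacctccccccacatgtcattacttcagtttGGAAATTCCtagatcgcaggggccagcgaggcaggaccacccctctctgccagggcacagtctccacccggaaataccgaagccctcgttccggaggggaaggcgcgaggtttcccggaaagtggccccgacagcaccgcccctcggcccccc
Sele held GGATATTCC at bases -145 to -137 and TATAAA at -49 to -44, counted back from the start, and Icam1 held GGAAATTCC at -153 to -145, which matched on both strands. Neither string was found in the windows of Selp and Ackr1. On either strand, GGANNTTCC occurred in 3.59% and TATAAA in 12.4% of the 32851 promoter windows of the same length. Of the 7 genes 4 were matched in the RefSeq table, and Vcam1, Icam2 and Vwf were not.

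After filtering, 33695 of 39558 barcodes were kept, with 4357 and 7823 in the deligated and 10615 and 10900 in the homeostatic libraries, from totals of 35662241 to 53898793 unique molecular identifiers (UMIs, counts of single captured transcripts) per library. Any pair of libraries shared 14 to 54 cell barcodes. Endothelial-like cells numbered 1878, 3115, 3573 and 3491 in deligated 1, deligated 2, homeostatic 1 and homeostatic 2, the order used for every list of 4 values here. Their 13 defining markers summed to 16236, 17386, 16847 and 16354 CPM (UMIs of a gene scaled to the same total in every sum of cells), against 46.9 to 184 CPM in fibroblast-like cells. A pair of other gene lists moved with the group in endothelial-like cells. The 13 salivary secretory products summed to 32.7, 63.7, 1828 and 1607 CPM, and 14 immediate early and dissociation genes to 6695, 8506, 4201 and 3928 CPM. Their part in the results was not tested.

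Endothelial-like cells were sub-clustered without the 7 genes and named from markers into capillary, arterial and venous types. Venous cells formed a small cluster with high Lrg1, called venous Lrg1-high (65, 70, 66 and 70 cells), and a larger one with low Lrg1, called venous Lrg1-low (150, 279, 416 and 399 cells). Capillary cells numbered 481 to 1134 and arterial cells 236 to 446 per library. A further 946 to 1525 cells per library met no type's rule and are called unnamed endothelial. The border of the Lrg1-high type was soft, with 132, 157, 210 and 205 such cells at a coarser clustering and 0, 95, 325 and 63 when each library was clustered alone. The name required both Lrg1 and Il1r1 among the passing markers. The 0 for deligated 1 rests on that rule. Its 195 venous cells had Lrg1 but not Il1r1 among their markers and were called Lrg1-low. Lrg1 itself was higher in deligated endothelial-like cells (75.7, 54.7, 23.9 and 25.7 CPM; log2 fold change 1.42, standard error 0.19, edgeR adjusted p = 0.00247), so a type split by Lrg1 is not independent of the group. When all classes were clustered together, 142 of the 271 Lrg1-high cells fell in a cluster that was 96.2% deligated and 114 in a cluster that was 0.155% deligated. Lrg1-low cells divided likewise, with 355 in a cluster that was 99.4% deligated and 354 and 454 in clusters that were 0.173% and 0.155% deligated, as did capillary cells, with 1302 in the first and 2194 in the second of these.

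The selectins marked the venous Lrg1-high type. Selp stood at 554, 442, 529.8 and 303 CPM there and at 77.0, 45.6, 26.7 and 32.3 CPM in the Lrg1-low type. In arterial cells it reached at most 5.53 CPM and in capillary cells at most 1.66 CPM, so the order of venous Lrg1-high over Lrg1-low over the rest held in every library without overlap. Sele followed with 144, 60.6, 122 and 105 CPM in Lrg1-high cells and 24.6, 6.51, 4.90 and 11.5 CPM in Lrg1-low cells. Arterial and capillary cells held 0 to 3 Sele UMIs per library. Endothelial-like cells carried 91.7% to 98.3% of all Selp UMIs, and 49.2% to 68.4% of the endothelial ones came from the Lrg1-high cells, which were 1.85% to 3.46% of that class.

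Vwf, the Weibel-Palade body builder, stood at 953, 732, 626 and 717 CPM in Lrg1-high cells and at 53.9, 11.2, 7.63 and 6.02 CPM in Lrg1-low cells. Arterial cells had 33.8, 16.6, 16.8 and 35.8 CPM, which overlapped the Lrg1-low values, and capillary cells at most 2.49 CPM. Ackr1 had its highest level in the same type, with 174, 146, 112 and 158 CPM in Lrg1-high cells and at most 6.16 CPM in each other vessel type. Lrg1-high cells held 77.3%, 49.2%, 53.0% and 67.1% of endothelial Ackr1 UMIs, and outside the endothelium mural-like cells reached 8.85 CPM and Schwann-like cells 18.3 CPM. The Ackr1 count is uncertain because Cadm3, an adhesion gene of nerve and Schwann cells, overlaps it on the same strand. Cadm3 itself was counted at 80.8 to 98.9 CPM in Lrg1-high cells.

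Vcam1, the ligand of VLA-4 integrin, had a second vascular site in arteries. It measured 161, 247, 334 and 287 CPM in Lrg1-high cells and 34.4, 31.9, 51.6 and 64.3 CPM in arterial cells. Lrg1-low cells had 30.04, 21.9, 28.9 and 13.1 CPM, and capillary cells 1.11 to 1.78 CPM. Within the arterial type it was concentrated in 1 of 3 sub-clusters, 206 cells in which all 11 arterial markers passed the marker rule. That sub-cluster had 132, 160.4, 122 and 179 CPM of Vcam1, while the largest arterial sub-cluster had 10.8, 16.5, 33.9 and 34.5 CPM.

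Icam1, the main ligand of the LFA-1 integrin, was graded rather than limited to veins. It fell from 167, 104, 116 and 136 CPM in Lrg1-high cells through 35.5 to 50.8 CPM in Lrg1-low and 19.5 to 31.2 CPM in arterial cells to 11.9 to 14.7 CPM in capillary cells, with no overlap between neighbours in that order. Icam2, the ICAM of resting endothelium, was high in every vessel type. Its level was highest in arterial cells, at 355, 392, 390.4 and 414 CPM, and lowest in Lrg1-high cells, at 175, 239.9, 186 and 182 CPM. Capillary (249.8 to 291 CPM) and Lrg1-low cells (215 to 285 CPM) overlapped.

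**Figure D1:**
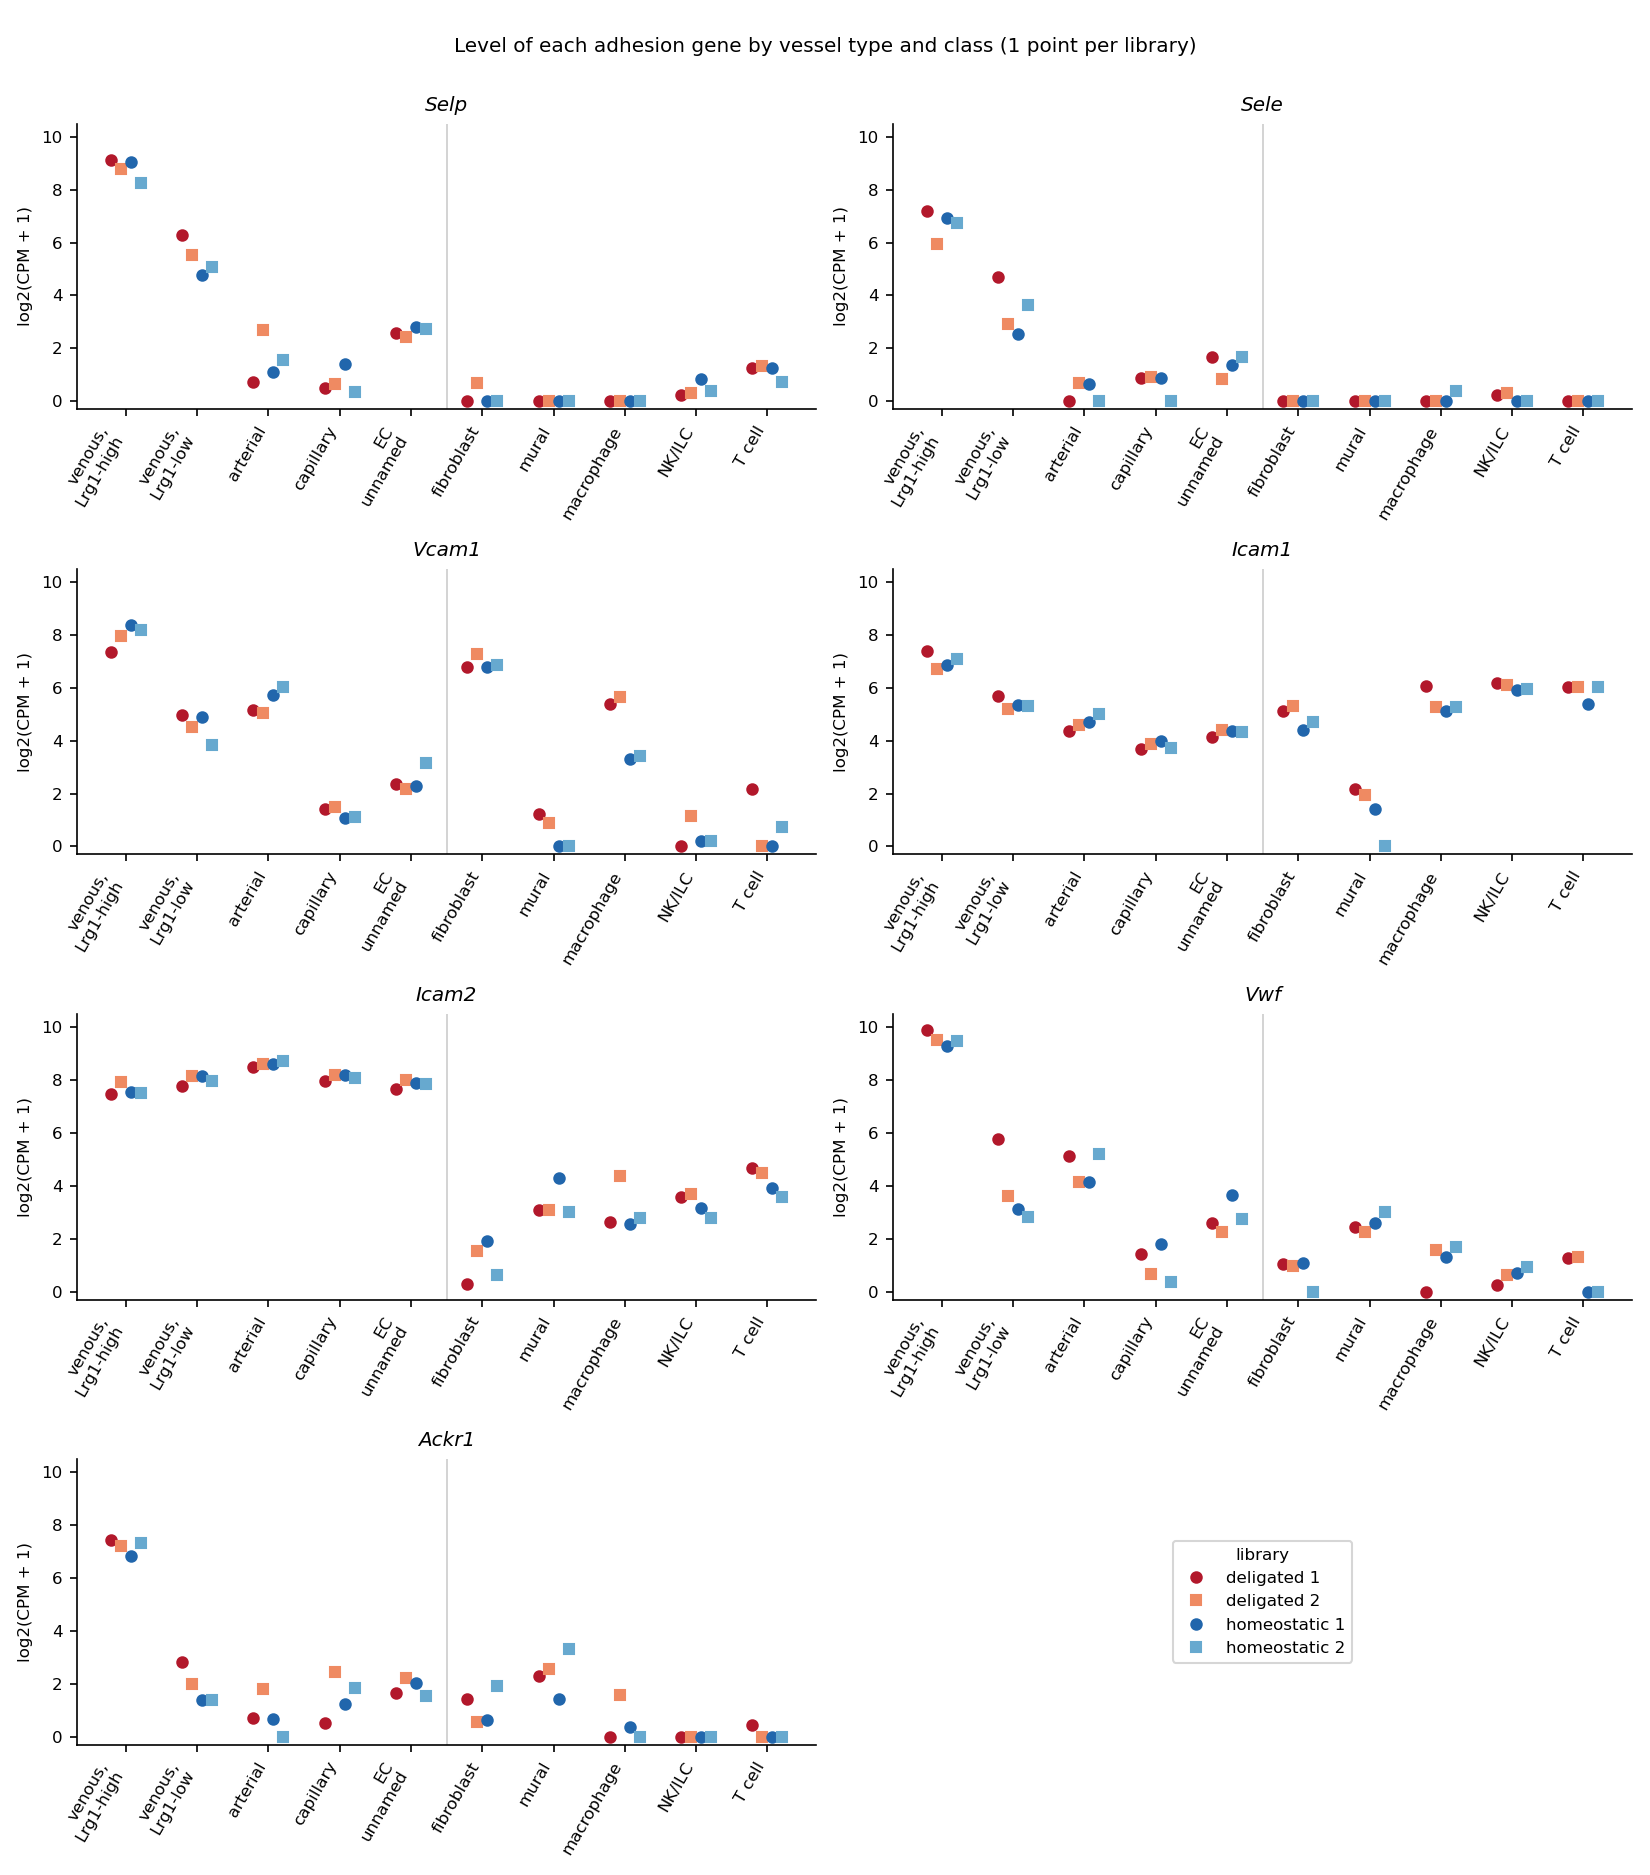
Level of each gene, as log2(CPM + 1), in vessel types (left of the grey line) and other classes (right), with 1 point per library. Selp, Sele, Icam1, Vwf and Ackr1 peak in venous Lrg1-high cells, Vcam1 also in arterial and fibroblast-like cells, and Icam2 lies high in every vessel type.

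Single cells of the venous Lrg1-high type carried several of these genes more often than cells of the Lrg1-low type did in each library. After each cell was thinned to 1000 UMIs, 38.5%, 21.4%, 34.8% and 19.1% of Lrg1-high cells had a Selp UMI, 61.5%, 32.9%, 40.9% and 38.2% a Vwf UMI, and 23.1%, 24.3%, 24.2% and 20.6% a Vcam1 UMI. The exact 95% binomial intervals were wide at these cell numbers, for Selp 26.7% to 51.4% in deligated 1 and 10.6% to 30.5% in homeostatic 2. T cell-like cells, which should lack these genes, had a Selp UMI in at most 0.190% and a Vwf UMI in at most 0.190% of cells. With Icam2 left out, 50.8%, 21.4%, 39.4% and 30.9% of Lrg1-high cells held at least 2 of the 6 other genes. In Lrg1-low cells that share was 3.33%, 0.717%, 0.240% and 0.251%. In unthinned cells median depth differed, with 7549, 4170.5, 4428 and 4623 UMIs per Lrg1-high cell.

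**Figure D2:**
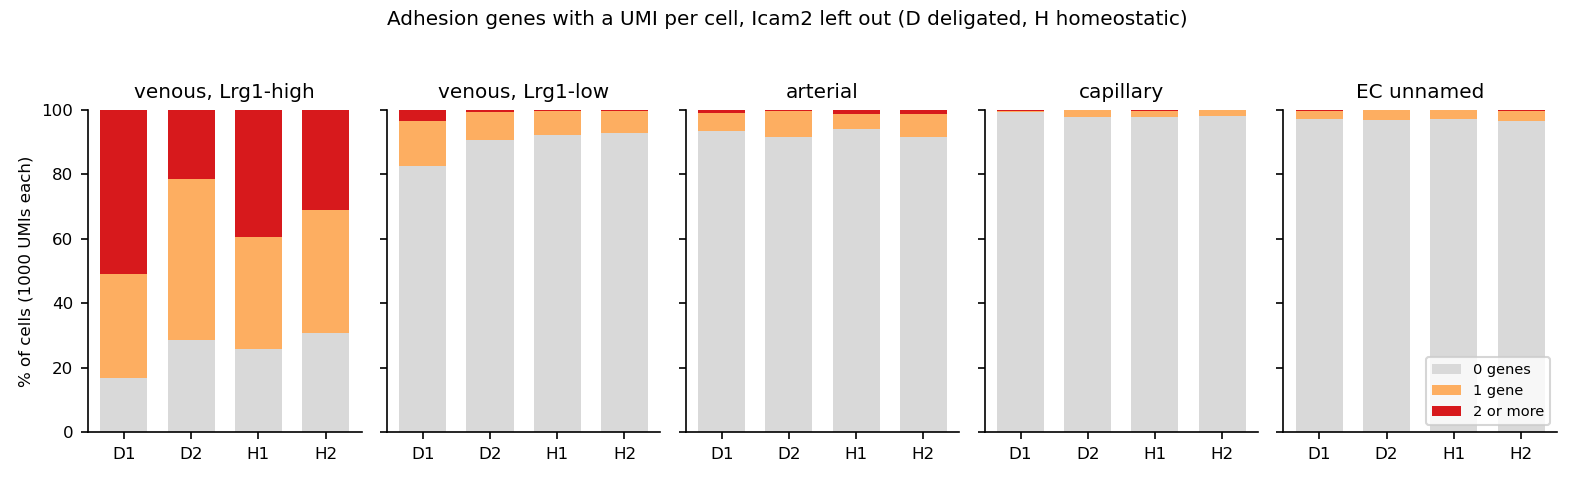
Share of cells (vertical axis, percent) with 0, 1 or at least 2 of the 6 genes other than Icam2, after thinning to 1000 UMIs, by vessel type and library (D deligated, H homeostatic). At least 2 genes were found in 21.4% to 50.8% of venous Lrg1-high cells and in at most 3.33% of cells of the other types shown.

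Across 46 sums of UMIs by cell unit and library (14 units, 4 libraries), the gene with the most similar log2(CPM + 1) profile among 7069 genes was Lrg1 for Selp (Pearson r = 0.89) and Selp for Sele (r = 0.97). For Vwf it was Selp (r = 0.83) and for Ackr1 it was Vwf (r = 0.78). Icam2 ran closest to Pecam1 (r = 0.97) and Cdh5 (r = 0.95), both general endothelial genes, Vcam1 to Bmp4 (r = 0.84) and Icam1 to Phf14 (r = 0.78). These sums share libraries and cell types, so the correlations are descriptions. The venous units were named by Lrg1 among other markers, so its place beside Selp is partly fixed by that naming. Sele itself was below the level required of candidate genes.

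Outside vessels the genes divided sharply. Fibroblast-like cells held Vcam1 at 110.0, 155, 110.0 and 116 CPM, and carried 65.8%, 76.7%, 36.4% and 38.6% of all Vcam1 UMIs against 28.5%, 17.5%, 50.6% and 49.8% in endothelial-like cells. Fibroblast-like cells were 8.01% and 8.82% of deligated but 2.50% and 2.49% of homeostatic cells, and the part of cell numbers in those UMI shares was not tested. Macrophage-like cells had Vcam1 at 41.0, 49.7, 8.94 and 9.71 CPM, which rested on 35 and 98 deligated cells and was not tested. Icam1 stood at 58.5 to 70.6 CPM in NK and innate lymphoid-like cells, at 40.4 to 65.0 CPM in T cell-like cells and at 33.5 to 66.7 CPM in macrophage-like cells, all above the arterial and capillary values. Dendritic-like cells, 15 to 22 per library, had the highest Icam1 of these classes, at 97.6 to 113 CPM in deligated and 79.1 to 86.0 CPM in homeostatic libraries. Icam2 stood at 144 to 183 CPM in the 15 to 69 erythroid-like cells per library, and Vcam1 at 11.2 to 74.4 CPM in the 14 to 65 Schwann-like cells. B and plasma cell-like cells held 0 to 12 Icam1 UMIs per library, too few to place. Mural-like cells, the pericytes and smooth muscle around vessels, had 0 UMIs of Selp and Sele and at most 1.31 CPM of Vcam1 and 3.496 CPM of Icam1. The 29 lymphatic endothelial-like cells had 0 UMIs of Selp, Sele, Vcam1 and Ackr1, at a depth too low to compare.

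To ask whether these genes differed after 5 days of deligation, UMIs were summed per library and tested with edgeR's quasi-likelihood test, with Benjamini-Hochberg adjustment over all genes. Over all endothelial-like cells none of the 7 passed an adjusted p of 0.05, by edgeR or by DESeq2, where 35.3% of the 13110 genes tested did by edgeR. At an unadjusted p under 0.05 edgeR found 2, Vcam1 and Ackr1. Selp measured 31.9, 18.1, 18.2 and 14.4 CPM (log2 fold change 0.64, standard error 0.29, adjusted p = 0.138), and deligated 2 lay within the homeostatic range. Vwf measured 49.3, 22.2, 22.6 and 24.2 CPM (0.64, standard error 0.37, adjusted p = 0.225), with deligated 1 alone above the rest. Ackr1 measured 8.84, 6.98, 4.54 and 5.48 CPM, without overlap (0.68, standard error 0.22, adjusted p = 0.0568), and 0.19 on the log2 scale in thinned cells. Vcam1 measured 15.5, 13.4, 19.1 and 19.6 CPM, also without overlap and in the other direction (-0.40, standard error 0.13, adjusted p = 0.0558), but its log2 fold change was 0.19 with cells thinned to 1000 UMIs and 0.07 with more doublets removed. Sele ranged from 2.78 to 9.33 CPM with both extremes in the deligated group, and without deligated 1 its log2 fold change turned to -0.76 (adjusted p = 0.00604). Icam1, at 22.8 to 25.1 CPM, and Icam2, at 226 to 279 CPM, had log2 fold changes of 0.04 and -0.06. Calls depended on single libraries. Without deligated 2, Selp (1.05), Sele (1.09), Vwf (1.16), Ackr1 (0.90) and Icam2 (-0.15) passed, and without deligated 1, Ackr1 (0.46), Vcam1 (-0.55) and Sele passed. With a trend on intron length removed, Selp (1.00, adjusted p = 0.0310) and Vwf (1.57, adjusted p = 0.0150) passed. In a sum over cells, more venous cells and more RNA per venous cell cannot be told apart.

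An endothelial total can move through the mix of vessel types or through the level within each. Lrg1-high cells were 3.46%, 2.25%, 1.85% and 2.01% of endothelial-like cells, without overlap but by a log2 ratio of 0.49 with a standard error of 0.39 (edgeR adjusted p = 0.299 over 5 types), and the ratio was -0.01 and -0.06 at resolutions 0.5 and 2.0. Lrg1-low cells fell as a share, with 7.99%, 8.96%, 11.6% and 11.4% (log2 ratio -0.43, adjusted p = 0.0160). Capillary cells fell too, with 25.6%, 28.5%, 31.7% and 31.8% (-0.21, adjusted p = 0.0151). Arterial cells, at 11.3% to 12.6%, gave a log2 ratio of -0.02. The unnamed cells rose, with 50.4%, 49.0%, 42.3% and 43.4% (0.21, adjusted p = 0.00471). These 3 calls were lost without homeostatic 1 (adjusted p = 0.335 each) or homeostatic 2 (0.291 each), while the Lrg1-high share passed without deligated 2 (0.84, adjusted p = 0.0279). Lrg1-low, capillary and unnamed cells also lost their calls with more doublets removed (edgeR adjusted p = 0.0702, 0.178 and 0.178). The same held with replicate number in the fit (0.0546, 0.0571 and 0.0546). Capillary and unnamed calls held at resolutions 0.5 and 2.0. Taken as shares of all retained cells, the capillary ratio turned to 0.10 (adjusted p = 0.307), with endothelial-like cells at 43.1% and 39.8% of deligated and 33.7% and 32.0% of homeostatic cells.

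**Figure D3:**
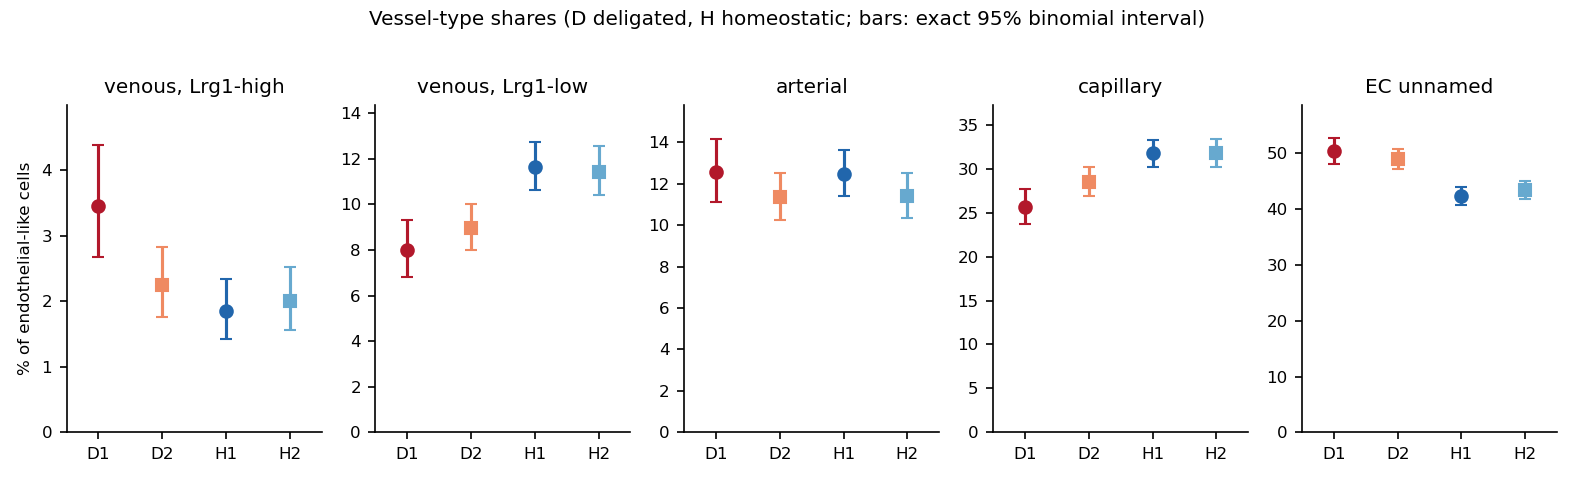
Share of each vessel type among endothelial-like cells (vertical axes, percent, each from 0) by library, with exact 95% binomial intervals that cover counting error only. The deligated libraries lie below the homeostatic ones for venous Lrg1-low and capillary cells, and above them for unnamed cells.

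Splitting the difference between group means into these parts gave no single pattern. For Selp, deligated minus homeostatic came to 8.29 CPM, of which 3.04 CPM came from shares and 5.25 CPM from levels, but over the 4 pairs of libraries the whole ranged from -0.05 to 17.6 CPM. For Vwf the 11.5 CPM difference held 6.42 CPM from shares and 5.08 CPM from levels, over a range of -2.05 to 26.7 CPM. For Ackr1 both parts were small, 1.35 and 1.45 CPM, and the whole was positive in all 4 pairs (1.499 to 4.30 CPM). Vcam1 differed by -4.57 CPM, with 1.36 CPM from shares and -5.93 CPM from levels, and the level part was negative in all 4 pairs (-7.20 to -4.89 CPM). Of that level part, -2.86 CPM lay in Lrg1-high cells and -2.67 CPM in arterial cells. With cells thinned to 1000 UMIs the level part of Vcam1 was -0.235 CPM and its whole difference 2.68 CPM, the level part of Ackr1 was -0.394 CPM, and at a coarser clustering the share parts of Selp and Vwf were 0.179 and -0.0979 CPM.

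**Figure D4:**
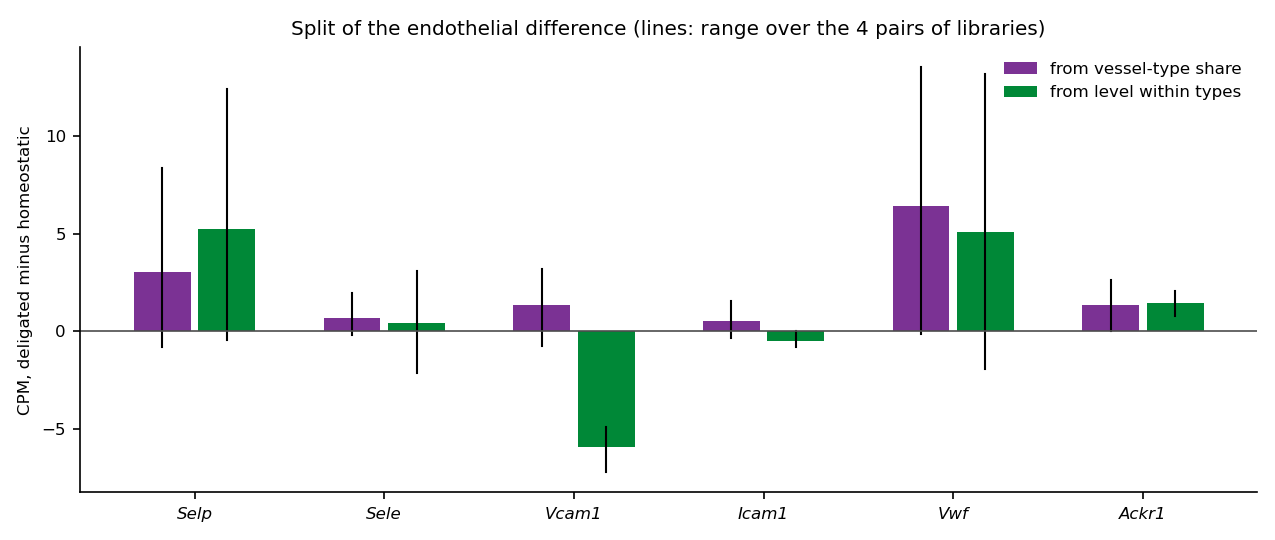
Deligated minus homeostatic mean CPM in endothelial-like cells, split into the part from vessel-type shares (purple) and from levels within types (green); lines give the range over the 4 pairs of libraries. Icam2, on a larger scale, is not drawn, and of the 6 genes drawn only Vcam1 and Ackr1 have a level part that keeps its sign over all 4 pairs.

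Within venous Lrg1-low cells, as defined at resolution 1, Selp rose. No cell met the rule of this type at resolution 0.5 or 2.0, and none did in homeostatic 1 when each library was clustered alone, so the result could not be checked at those clusterings. Its values of 77.0 and 45.6 against 26.7 and 32.3 CPM did not overlap, with a log2 fold change of 1.04 (standard error 0.26, edgeR adjusted p = 0.0125). Leaving out any 1 library kept it past the threshold (adjusted p at most 0.0382), with log2 fold changes of 0.60 without deligated 1 to 1.45 without deligated 2. The call was lost with no filter on low counts (1.04, adjusted p = 0.0692) and with cells thinned to 1000 UMIs (1.17, adjusted p = 0.102). Vwf also rose in these cells (log2 fold change 2.17, standard error 0.61, adjusted p = 0.0243), but this rested on deligated 1: without it the log2 fold change was 0.69 (adjusted p = 0.358), and under DESeq2 the adjusted p was 0.249. So 2 of the 6 genes tested in this type passed, both higher, where 17.5% of 9769 genes passed and 5.30% were higher. Sele (0.85, adjusted p = 0.338), Vcam1 (0.29), Icam1 (0.13) and Icam2 (-0.05) did not pass, and Ackr1, with 3 to 8 UMIs, was too low to test. With 1 library left out the direction of Sele turned, over a range of -0.35 to 1.65. Its log2 fold change was 1.65 without deligated 2 and 1.61 without homeostatic 2. The 9 venous markers summed to 1339, 1397, 1354 and 1274 CPM in Lrg1-low cells, but Lrg1 alone stood at 120.2, 91.8, 27.2 and 21.9 CPM there. T cell markers summed to 6.16, 17.2, 1.63 and 1.64 CPM in them, with Cd3e at 0.770, 1.78, 0 and 0 CPM, and the pan-leukocyte gene Ptprc stood at 3.08, 12.4, 1.63 and 0.548 CPM. NK and innate lymphoid markers (10.0, 87.0, 29.4 and 20.8 CPM) overlapped between groups. The part of these markers, and whether the border of this type moved between groups, was not tested. With both venous types pooled, Selp passed (223, 121, 99.7 and 73.0 CPM; log2 fold change 1.02, adjusted p = 0.0333), as did Vwf (1.21, adjusted p = 0.0284), against 16.6% of genes called and 4.57% higher. Pooled values mix share with level, since Lrg1-high cells were 65 of 215, 70 of 349, 66 of 482 and 70 of 469 pooled cells, and they do not check the level within Lrg1-low cells. Without homeostatic 1 or homeostatic 2 these calls were lost, with adjusted p of 0.0572 and 0.307 for Selp and 0.153 and 0.164 for Vwf. DESeq2 called neither, with adjusted p of 0.296 and 0.281. Pooled at a coarser clustering, Selp had a log2 fold change of 0.54 (adjusted p = 0.151), and with each library clustered alone 0.35 (adjusted p = 0.702).

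In venous Lrg1-high cells, where the genes were richest, none of the 7 passed by edgeR or DESeq2, where 10.7% of 5706 genes did by edgeR (2.58% higher), and Vcam1 alone had an unadjusted p under 0.05. Vcam1 was lower in both deligated libraries (log2 fold change -0.60, standard error 0.23, adjusted p = 0.122). Selp (0.30, standard error 0.24), Vwf (0.36, 0.19), Ackr1 (0.28, 0.26), Icam1 (0.16, 0.28), Icam2 (0.18, 0.24) and Sele (-0.06, 0.34) had log2 fold changes within 2 standard errors of 0. Without deligated 2, Selp (0.54, adjusted p = 0.0449), Vwf (0.62, 0.00245) and Vcam1 (-0.82, 0.0107) passed. On simulated counts for this type, 31.2% of genes changed by 1 log2 unit and 90.4% of those changed by 2 were recovered. Mural markers summed to 870.2 CPM in homeostatic 1 against 27.8 to 65.7 CPM in the other libraries of this type, with 9 of 11 markers at 0 there. T cell markers stood at 78.3 CPM in deligated 2 against at most 3.51 CPM elsewhere. Il1r1, a venous marker that helped to name the type, was lower in the deligated libraries (94.8, 98.5, 267 and 213 CPM; log2 fold change -1.28, adjusted p = 0.00155). Their part was not tested.

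In arterial cells Vcam1 fell, from 51.6 and 64.3 to 34.4 and 31.9 CPM, without overlap (log2 fold change -0.79, standard error 0.19, adjusted p = 0.0240). It was 1 of the 4 genes tested there, where 13.4% of 9520 genes passed, 9.68% lower and 3.68% higher. Values of the groups did not overlap in the largest arterial sub-cluster and did overlap in the Vcam1-rich one. The call was lost under DESeq2 (adjusted p = 0.184) and without deligated 2 (-0.67, adjusted p = 0.0665), homeostatic 1 (-0.95, 0.0929) or homeostatic 2 (-0.62, 0.288), and with cells thinned to 1000 UMIs the log2 fold change turned to 0.52 (adjusted p = 0.542). Thinning left 227 to 400 arterial cells of 1000 UMIs each per library, so the thinned Vcam1 value rests on few UMIs. Icam1 (-0.37), Icam2 (-0.10) and Vwf (-0.03) did not pass.

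In capillary cells only Icam1 (-0.07) and Icam2 (-0.04) had enough counts, and neither passed, at 0 unadjusted p under 0.05 in either tool and a background of 20.9%. In the unnamed endothelial cells all 7 were tested and none passed in either tool (background 32.3%), although Vwf had an unadjusted p under 0.05 with a log2 fold change of -0.96 (adjusted p = 0.0779). Of the Vwf UMIs in those cells 117 came from 34 cells of 1 sub-cluster that carried venous markers together with NK and T cell markers. Of 14 alternatives 5 passed, among them those without deligated 1 (-1.23, adjusted p = 0.00537) or homeostatic 2 (-1.37, 0.0133), and 3 had the other sign, up to 0.61 with clustering per library. Without these 34 cells Vwf stood at 3.71, 1.86, 0.863 and 4.01 CPM, and the groups overlapped.

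**Figure D5:**
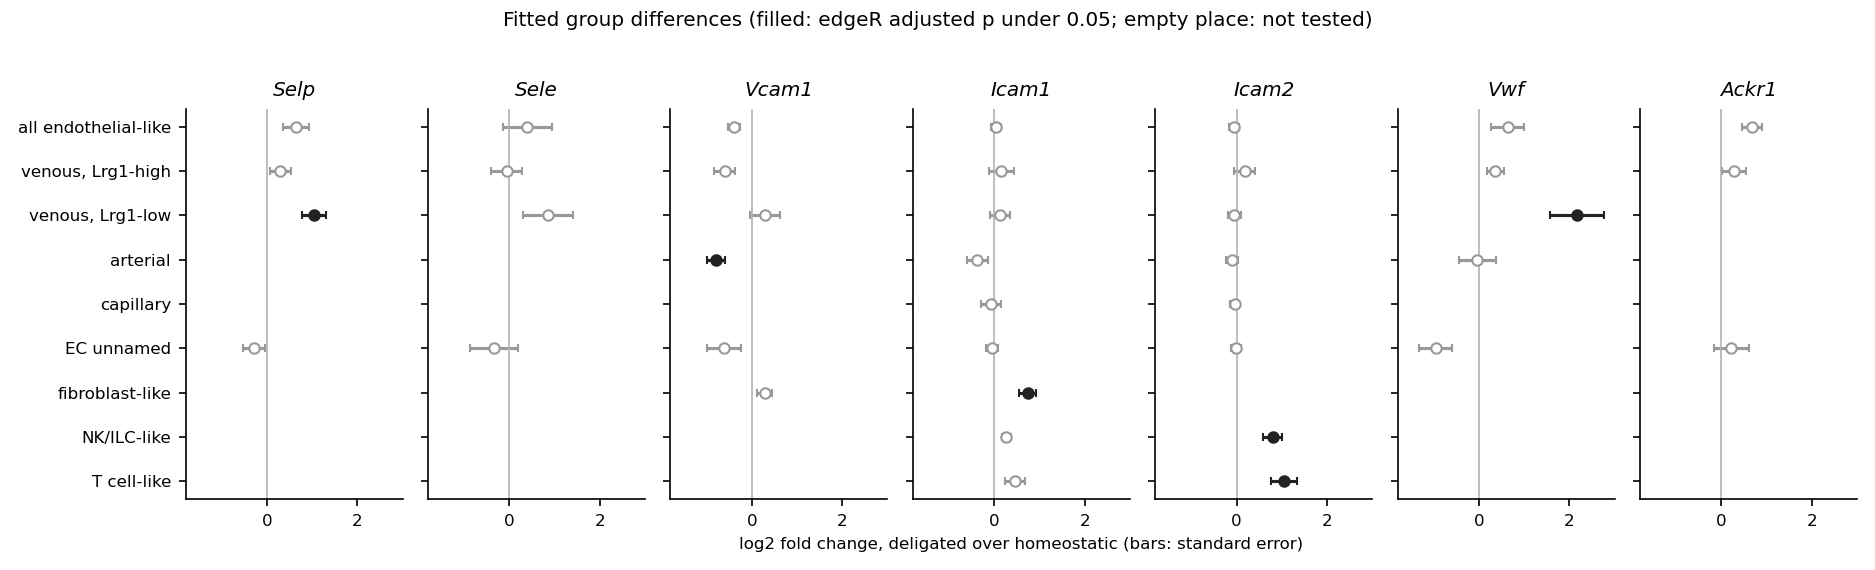
Fitted log2 fold changes, deligated over homeostatic, with standard errors for each gene (panels) in all endothelial-like cells, vessel types and other classes (rows); filled points passed an edgeR adjusted p of 0.05 and empty rows were not tested. Filled points are Selp and Vwf in venous Lrg1-low cells (1.04 and 2.17), Vcam1 in arterial cells (-0.79), Icam1 in fibroblast-like cells (0.74) and Icam2 in the lymphoid classes (0.80 and 1.05).

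Whether the group difference itself varied between vessel types was tested as an interaction against capillary cells, with library as a term. For Selp, Sele, Vcam1, Vwf and Ackr1, capillary cells held too few UMIs for a test of their own. Interactions of these genes had a reference near 0 and standard errors of up to 2.34, so a missing call decides little for them. None of the 21 tests of these genes in 3 vessel types passed, where 0.434% of genes did for arterial, 0.0462% for Lrg1-low and 0.342% for Lrg1-high cells. The lowest was Vwf in Lrg1-low cells, the 1 test with an unadjusted p under 0.05 by edgeR (difference of log2 fold changes 2.54, standard error 1.05, adjusted p = 0.823), and DESeq2 gave 0 tests under either threshold. Selp in Lrg1-low cells did not pass either (1.85, standard error 1.08, adjusted p = 0.932). With capillary Selp at most 1.66 CPM, this test cannot decide whether its rise is particular to that type.

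Outside the endothelium, Icam1 rose in fibroblast-like cells, with 33.3, 38.6, 19.9 and 24.8 CPM and no overlap (log2 fold change 0.74, standard error 0.19, edgeR adjusted p = 0.0197, against a background of 25.4% called, 8.13% higher and 17.3% lower). Vcam1 in the same cells did not pass (0.29, adjusted p = 0.240), except without deligated 1 (0.48, adjusted p = 0.00102). The Icam1 call was lost without homeostatic 1 (0.58, adjusted p = 0.193), under DESeq2 (adjusted p = 0.113) and when cells were thinned (0.52, adjusted p = 0.434). Icam2 rose in both lymphoid classes, where its level was low: 11.1, 12.0, 7.95 and 5.91 CPM in NK and innate lymphoid-like cells (0.80, adjusted p = 0.0132, background 43.5% called and 17.0% higher) and 24.8, 21.4, 14.2 and 10.8 CPM in T cell-like cells (1.05, adjusted p = 0.0202, background 29.8% called and 10.4% higher). Both calls were lost under DESeq2, with adjusted p of 0.0909 and 0.156, and without homeostatic 2 (0.62 with adjusted p = 0.137, and 0.87 with adjusted p = 0.176), that in T cell-like cells also without homeostatic 1 (1.24, adjusted p = 0.0718), and in thinned NK and innate lymphoid-like cells the log2 fold change was 0.11. Icam1 did not pass in NK and innate lymphoid-like cells (0.27, adjusted p = 0.0534) or T cell-like cells (0.46, adjusted p = 0.145), though in both it passed without deligated 1 or deligated 2.

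Other genes of the adhesion pathway were read from lists in endothelial-like cells, where 13.1% of all genes tested were higher and 22.2% lower in the deligated group. Of the genes of junctions and transmigration, 3 of 13 tested rose and 0 fell: Cd34, a sialomucin of the endothelial surface (log2 fold change 0.47), Esam (0.35) and Cdh5, the VE-cadherin of adherens junctions (0.31). Their median was 0.15, against 0.00 over all genes. Of the 14 Weibel-Palade body genes 2 rose and 2 fell. Cd63, a granule membrane protein that keeps P-selectin at the surface, rose from 7.71 and 8.66 to 16.3 and 15.7 CPM (0.99, adjusted p = 0.00269), and Bloc1s6, a subunit needed to form such organelles, rose by 0.29. Stxbp5, which restrains granule release, fell from 51.9 and 54.1 to 23.6 and 24.6 CPM (-1.12, adjusted p = 2.9e-04), and Rab27a, a tether of mature granules, fell by 0.94 on the log2 scale.

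Among chemokines made or presented by vessels, 3 of 10 tested rose and 0 fell. Cxcl12, which draws CXCR4-bearing cells, rose from 1124 and 1227 to 2897 and 2292 CPM (log2 fold change 1.17, standard error 0.16, adjusted p = 0.00246). Cxcl1, a neutrophil chemokine, rose by 1.32 at 2.16 to 7.22 CPM, and Ccl21a, a lymphatic chemokine, by 5.28 at 0.0722 to 20.7 CPM. Among 20 cytokine receptor and NF-kappaB genes 4 rose and 1 fell. Tnfrsf1a (0.45), Il4ra (0.37) and Nfkbia, the inhibitor that NF-kappaB itself induces (0.35), were higher, and Birc3 was lower (-0.65). In Lrg1-high cells alone 0 of 12 junction, 1 of 9 Weibel-Palade, 0 of 4 chemokine and 0 of 14 cytokine and NF-kappaB genes rose, and 1 of the last list fell. Over all genes of that type 2.58% were higher and 8.13% lower, so such counts are near the background. The 14 immediate early genes, by contrast, gave 13 higher of 14 in endothelial-like cells (median 0.88) and 12 of 13 in Lrg1-high cells (median 1.29). The counts of called genes moved with the library left out, and junction and chemokine genes that fell then also appeared. Genes that rose numbered 0 to 10 for the junction list, 1 to 6 for Weibel-Palade bodies, 2 to 9 for chemokines, 0 to 10 for cytokine and NF-kappaB genes and 6 to 14 for immediate early genes, lowest without a homeostatic and highest without a deligated library. The chemokine median was 0.87 without deligated 1 and -0.44 without deligated 2. Of the genes named from these 4 pathway lists, Cd63, Rab27a, Ccl21a and Cxcl12 passed in every alternative that tested them, and the others missed the threshold in at least 1. Over the alternatives the log2 fold change of Stxbp5 ran from -1.40 to -0.16, that of Rab27a from -1.11 to -0.48 and that of Birc3 from -0.70 to -0.38.

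The leukocyte side of the same contacts was read in the lymphoid classes. In NK and innate lymphoid-like cells 6 of 18 ligands and integrins rose and 7 fell, against 17.0% and 26.5% of all genes there. Selplg, the P-selectin ligand PSGL-1, rose from 332 and 326 to 422 and 516 CPM (log2 fold change 0.57, adjusted p = 0.00183), as did Spn (0.71) and Itgam, the alpha chain of Mac-1 (0.75). St3gal4, which caps selectin ligands with sialic acid, fell by 1.77 on the log2 scale, Itga2 by 1.57 and Cd44 by 0.77. In T cell-like cells 5 of 19 rose and 8 fell, against 10.4% and 19.4% of all genes there, with Spn (0.93) and Selplg (0.60) among those higher. Itgax (-2.58), Itgam (-2.36) and St3gal4 (-2.02) were lower, so Selplg rose and St3gal4 fell in both classes while Itgam rose in one and fell in the other. Leaving out 1 library gave 3 to 7 higher and 4 to 9 lower in NK and innate lymphoid-like cells, and 1 to 6 higher and 5 to 10 lower in T cell-like cells. In NK and innate lymphoid-like cells the direction of Cd44 turned over the alternatives (-1.23 to 0.16), and Itga2 ran from -1.73 to -0.58 and St3gal4 from -1.84 to -0.98. In T cell-like cells Selplg, Spn and Itgam missed the threshold in at least 1 alternative.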

How the data were processed

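The deposited files hold raw UMI counts per gene and cell barcode, made with Cell Ranger (6.0.1 for deligated and 7.0.0 for homeostatic libraries, per the file headers). Build mm10, Cell Ranger 6.0.1 and Seurat are named per the submitters' processing notes. By default the later version counts intronic reads and the earlier one does not, which could raise counts of genes with long introns in the homeostatic libraries. Whether the defaults were kept is not given in the sources used here. Cells with at least 300 genes and at most 10% mitochondrial UMIs were kept, doublets were removed at 0.8% per 1000 cells, and 40 clusters (leidenalg 0.10.2, resolution 1) were named from markers, 29 of them successfully. Endothelial-like cells were sub-clustered without the 7 genes by a naming rule set with the clusters in view. UMIs were summed per library and cell type, since cells are not replicates, and tested with edgeR 4.0.16 in R 4.3.3 (quasi-likelihood, TMM). DESeq2 1.42.0 was an alternative. With 2 libraries per group an exact permutation test cannot go below p = 0.333, and p-values measure the spread between these libraries only. The fits were tested on simulated data, where 76.8% of genes changed by 1 log2 unit and 96.9% of those changed by 2 were recovered in endothelial-like cells. Alternatives changed the tool, filters, doublet rate, clustering, depth (cells thinned to 1000 UMIs), intron-length trend and libraries used. Pooling both venous types was chosen after seeing the data. The genes named in the text were the 7 in every type tested, for each list the 3 largest called changes per direction, and the genes most correlated with each of the 7. One gene that this rule names is not reported here. The members and lists were chosen with earlier results of these data known. Intervals cover counting error only.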

Additional observations from a re-analysis of the deposited data

Results flagged for a closer look

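In 5 cases every deligated library lay on one side of every homeostatic library in one cell type and on the opposite side in another, and none of these differences was tested. For Selp the log2 change in venous Lrg1-low cells exceeded that in unnamed endothelial cells by 1.35. Vwf gave 3.21 for venous Lrg1-low against unnamed endothelial cells and 1.28 for venous Lrg1-high against unnamed endothelial cells. All 3 rest on the unnamed cells, where 34 cells with venous, NK and T cell markers held 87 Selp and 117 Vwf UMIs. Without those cells the groups overlapped there for both genes, with Selp at 3.13, 2.27, 1.01 and 3.57 CPM. Icam1 moved oppositely in arterial cells and in 2 other classes, by 1.07 for fibroblast-like cells and 0.60 for NK and innate lymphoid-like cells. Arterial Icam1 itself did not pass its test.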

How the results depend on the processing

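Of 1216 alternative values, 111 changed sign with neither fit past the threshold. Log2 fold changes follow, and the cause was not tested for any of them. In endothelial-like cells Selp passed with no filter (0.65), with the intron-length trend removed (1.00) and with more doublets removed (1.19). Vcam1 passed with no filter (-0.39) and stricter cells (-0.52) but had the other sign when thinned (0.19) and with more doublets removed (0.07), Vwf with the intron trend removed (1.57) and more doublets removed (1.17), and Ackr1 with no filter (0.68), stricter cells (0.83) and more doublets removed (1.33), but not when thinned (0.19). Calls were lost for Selp in venous Lrg1-low cells with no filter (1.04) and thinning (1.17), and for Vwf there under DESeq2 (2.31), no filter (2.17) and more doublets removed (1.49). Arterial Vcam1 lost its call under DESeq2 (-0.79), more doublets removed (-0.75) and clustering per library (-0.76), and reversed when thinned (0.52). Icam1 in fibroblast-like cells lost it under DESeq2 (0.76), the intron trend (0.62) and thinning (0.52), Icam2 in NK and innate lymphoid-like cells under DESeq2 (0.80) and thinning (0.11), and Icam2 in T cell-like cells under DESeq2 (1.07). Selp in unnamed endothelial cells reversed at clustering resolution 0.5 (1.15).

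Leaving out each library gave -0.76 to 1.09 for Sele in endothelial-like cells, where it reversed without deligated 1 (-0.76). The ranges there were 0.13 to 1.05 for Selp, -0.55 to -0.24 for Vcam1, -0.15 to 0.048 for Icam2, -0.10 to 1.16 for Vwf and 0.46 to 0.90 for Ackr1. They were -0.95 to -0.62 for arterial Vcam1, 0.69 to 3.04 for Vwf in Lrg1-low cells, 0.58 to 0.92 for Icam1 in fibroblast-like cells, and for Icam2 0.62 to 1.01 in NK and innate lymphoid-like and 0.87 to 1.24 in T cell-like cells. Log2 share ratios with 1 library left out ranged from -0.31 to -0.16 (capillary), -0.53 to -0.37 (Lrg1-low), 0.22 to 0.84 (Lrg1-high) and 0.19 to 0.23 (unnamed). Genes called in endothelial-like cells numbered 1623 to 7811, and 2489 when thinned, against 4631.

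The Lrg1-high share ratio was -0.01 at resolution 0.5, -0.06 at 2.0, -1.83 with clustering per library and 1.00 with more doublets removed, passing in none. The capillary share ratio lost its call with stricter cells (-0.16), more doublets removed (-0.22) and clustering per library (-0.46), and reversed among all retained cells (0.10). The Lrg1-low ratio lost it with more doublets removed (-0.45) and among all retained cells (-0.11), and reversed with clustering per library (0.92). The unnamed ratio lost it with stricter cells (0.20), more doublets removed (0.18) and clustering per library (0.39). Clustered alone, deligated 1 had 195 venous cells called Lrg1-low although Lrg1 was among their markers. No cell of homeostatic 1 then had that name. Per-library ratios and share parts of the venous types depend on that naming. In the split, the share part with clustering per library was -3.40 CPM for Selp, -4.21 CPM for Vcam1 and -8.99 CPM for Vwf. With more doublets removed it was 3.802 CPM for Vcam1 and 14.3 CPM for Vwf, and at resolution 2.0 it was -0.79 CPM for Vwf. The level part of Vcam1 was -0.235 CPM thinned, -2.92 CPM with more doublets removed, and -4.56, -4.09 and -4.42 CPM at resolution 0.5, 2.0 and per library.

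Same-numbered libraries showed no shared deviation, with correlations of -0.117 to -0.022 over 6 cell types. That does not exclude a shared day or batch, on which the labels are silent. With the replicate block Selp in endothelial-like cells passed (0.61, adjusted p = 0.0211). The share ratios under the block missed the threshold for capillary (-0.22), Lrg1-low (-0.43) and unnamed cells (0.21). In capillary and arterial cells 5 and 3 of the 7 genes were too low to test, at larger UMI totals than in Lrg1-high cells, where all 7 were tested.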

Other observations

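Vwf was also counted in cells of unnamed clusters, most of them homeostatic. An unnamed cluster led by Ascl3, Aldh1a3 and Foxi1, with 307 and 301 homeostatic cells, 9 cells in deligated 2 and 0 in deligated 1, held Vwf at 104 and 84.3 CPM in the homeostatic libraries (43 and 29 UMIs) and 2 Vwf UMIs in the 9 cells of deligated 2. It held 0 Sele UMIs and at most 1 Icam2 UMI per library. An unnamed cluster led by Il1rl1, Stab2 and Areg, with 84 and 78 homeostatic cells, held 38 and 8 Vwf UMIs and 3 and 17 Sele UMIs. Another cluster led by the same 3 genes, with 47 and 130 deligated cells, held 0 and 1 Vwf UMIs and 0 Sele UMIs. A low-depth unnamed cluster led by Rab13, Bvht and Rbp7, with 472 and 546 homeostatic cells, held Icam2 at 177 and 229 CPM. Cells of unnamed clusters carried 18.9% and 8.83% of the homeostatic Vwf UMIs.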
